A study of Mus musculus with 9 samples.

Results

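The measurements concern 19 array probes for coding transcripts that were detected on all 3 arrays of mouse blood stem and progenitor cells carrying DNMT3A R882H and on 0 of the 6 arrays of cells carrying wild-type DNMT3A or an empty vector. They stood for 19 of 20809 coding transcripts by accession, and were 19 of 26536 probes with a RefSeq coding accession, or 0.0716%, out of 55681 non-control probes in all. A probe was counted as detected on an array, or called, where the scanning software marked its spot as well above background, and each of the 19 probes had 1 spot. Not being called is not the same as having no signal: by the software's weaker mark, of a signal positive and significant against background, all 19 were also present on at least 1 of the 6 other arrays, on 2 to 6 of them, and 7 of the 19 on all 6. That mark was set for 78.2 to 88.3% of the coding probes per array. The calls of the 9 arrays chose the probes, so the levels and folds of R882H against the other cells are given as a description, with no test. The brightest named probe was that of Irf4, a transcription factor of lymphoid, plasma cell and dendritic cell differentiation, and the next was that of Ehd3, which acts in endosomal recycling. The label of coding transcripts detected with R882H alone describes these probes and not every probe of their genes. For 9 of the 10 genes that had a further probe, such a probe was called on at least 1 of the 6 other arrays. The share of all probes called on at least 1 of these 6 was not computed, so that count is not read as a result about these genes. Of all coding probes, 60.9 to 69.8% were called per array.

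The 3 groups had 3 samples each: LSK cells transduced with DNMT3A R882H, with wild-type DNMT3A (WT below) and with an empty vector (EV below). LSK cells are the lineage-negative bone marrow fraction that carries Sca-1 (Ly6a) and Kit and holds the blood stem cells. All 3 groups were GFP-labelled C57BL/6 cells sorted after transplantation, and each array was hybridised with cDNA amplified from 3.67 ng of total RNA. The labels do not say whether samples came from separate mice, so the spread between the 3 samples of a group may be technical. The labels leave out the promoter driving the transgene, the age of the mice and whether animals were pooled. In bulk RNA, more cells of a type and more RNA per cell cannot be told apart.

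DNMT3A is a de novo DNA methyltransferase, which adds methyl groups to cytosine in CG dinucleotides, and CG methylation of a promoter often goes with a silent gene. The arginine that R882H replaces with histidine lies in the catalytic domain, and this change is a recurrent DNMT3A mutation of acute myeloid leukaemia and of clonal haematopoiesis, with reduced methyltransferase activity. The R882H and WT groups added a DNMT3A form to cells that kept the mouse's own gene, and the EV group added none. The Dnmt3a probe was called on all 9 arrays, at 1.67, 1.44 and 1.07 with R882H, 1.41, 1.80 and 0.45 with WT and 1.14, 1.44 and 0.51 with EV. These and all levels below are log2 processed signals over the 75th percentile of the array, so a level of 0 is as bright as that percentile. Whether this probe also reads the transgene was not tested.

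The 9 arrays differed in how much they detected. The share of coding probes called was 69.8, 66.0 and 64.6% on R882H replicates 1 to 3, 63.8, 69.8 and 63.0% on WT replicates 1 to 3, and 64.2, 60.9 and 64.2% on EV replicates 1 to 3. R882H replicate 1 and WT replicate 2 called the most and EV replicate 2 the fewest, and the groups overlapped, at 66.8 ± 2.71% with R882H, 65.5 ± 3.72% with WT and 63.1 ± 1.92% with EV (SD, n = 3 each). The dimmest signals that were still called moved with this share: the 1st percentile of the levels called on an array was -3.90, -3.61 and -3.48 with R882H, -3.57, -3.99 and -3.40 with WT, and -3.51, -3.20 and -3.63 with EV. R882H replicates 1 and 2 shared a slide with WT replicates 2 and 3, R882H replicate 3 was alone on its slide, and all 3 EV samples shared a slide with WT replicate 1. No slide held both R882H and EV, so for these groups slide and group cannot be told apart. Kit (3.84 to 4.60) and Ly6a (0.98 to 2.87) were called on all 9 arrays, as was Itgam, a myeloid marker that the lineage depletion usually removes, with 1 of its 3 probes at 7.43 to 7.81 and the others at -0.40 or below. In the authors' deposited value table, 7 of the 9 columns held the values of an array labelled as another sample, 4 of them of another group, and the groups used here are those the labels give to the scanner files.

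**Figure D1:**
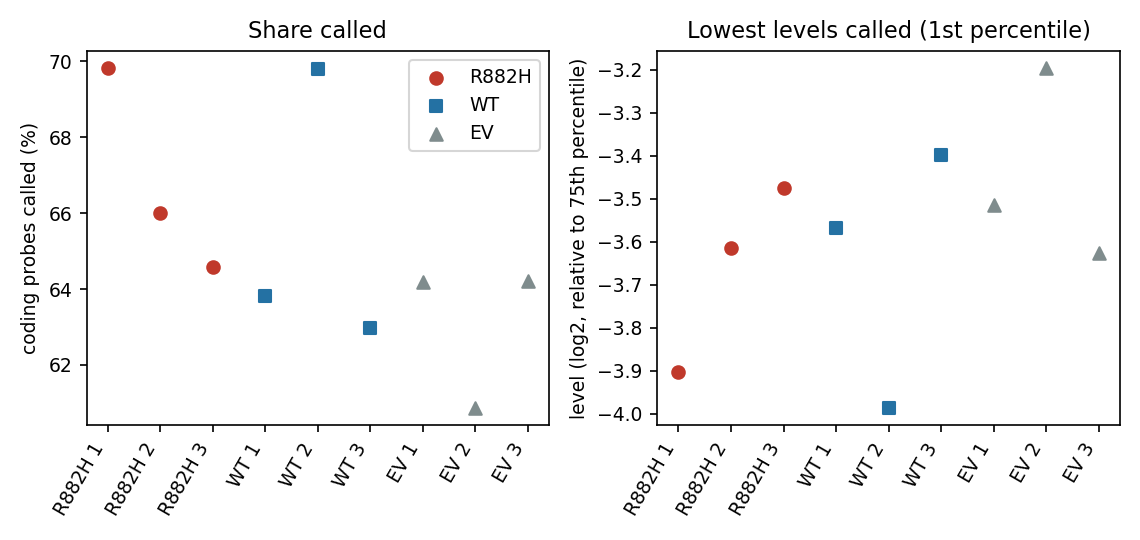
Share of coding probes called on each array (left, percent) and the 1st percentile of the levels called there (right, log2 signal over the array's 75th percentile), 1 point per array, neither axis starting at 0. R882H replicate 1 and WT replicate 2 have the highest shares (69.8% each) and the lowest called levels, and EV replicate 2 has the lowest share (60.9%).

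With the call well above background, the same rule found fewer probes for the other groups. With WT as the single group 7 coding probes were called on its 3 arrays and on none of the other 6, or 0.0264% of 26536, and with EV as the single group 2 were, or 0.00754%. This order depended on the call and on the labels. With the weaker mark the counts were 11 with R882H, 11 with WT and 4 with EV, and with the groups as the value table names its columns they were 3 with R882H, 41 with WT and 2 with EV, in both cases with 0 of the 19 probes among those found for R882H. Sets of 3 arrays drawn across the groups covered both sides of the counts of 19, 7 and 2. By the arrays that the columns matched, the column groups of the value table are themselves among these sets and add no separate count. The 41 is that of R882H replicate 1, WT replicate 2 and EV replicate 3. The 81 mixed triples gave 0 to 83 probes each, with a median of 3.0, and 6 of them gave more than the 19 of R882H. All 6 held R882H replicate 1 together with WT replicate 2, the arrays with the most calls. The 7 mixed triples with that pair gave 7 to 83 probes with a median of 33, and the 74 mixed triples without it gave 0 to 15 with a median of 3. That pair was set apart after the counts were seen, because every count above 19 held it. That the 74 lay below 19 was thus fixed by the choice, and nothing is read from it. The R882H set itself also holds R882H replicate 1. The highest count, 83, came from R882H replicates 1 and 2 with WT replicate 2, which all lay on 1 slide. Split by the number of R882H arrays in a triple, the counts overlapped. The 18 mixed triples with 2 of them gave 1 to 83 probes and a median of 5. The 45 with 1 of them gave 0 to 44 and a median of 3, and the 18 with 0 of them gave 0 to 13 and a median of 2. Triples of R882H replicates 2 and 3, without replicate 1, gave 9 with WT replicate 2 and 5 with EV replicate 3. They gave 3 each with EV replicate 1 and WT replicate 3, and 1 each with EV replicate 2 and WT replicate 1. With the number of calls made equal, by taking the 16151 brightest coding probes on each array, the counts were 8 with R882H, 8 with WT and 6 with EV. The mixed triples then gave 0 to 11 with a median of 5, and 13 of the 81 gave 8 or more. The probe of Ehd3 was the 1 of the 19 among the 8 of R882H. With 1 common level limit of -3.20 on every array, an alternative added after seeing the data, R882H had 15 probes, WT 2 and EV 2, and the mixed triples gave 0 to 17, of which 1 gave 15 or more. Of those 15 R882H probes, 5 were among the 19. All these counts are given as a description, with no p.

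**Figure D2:**
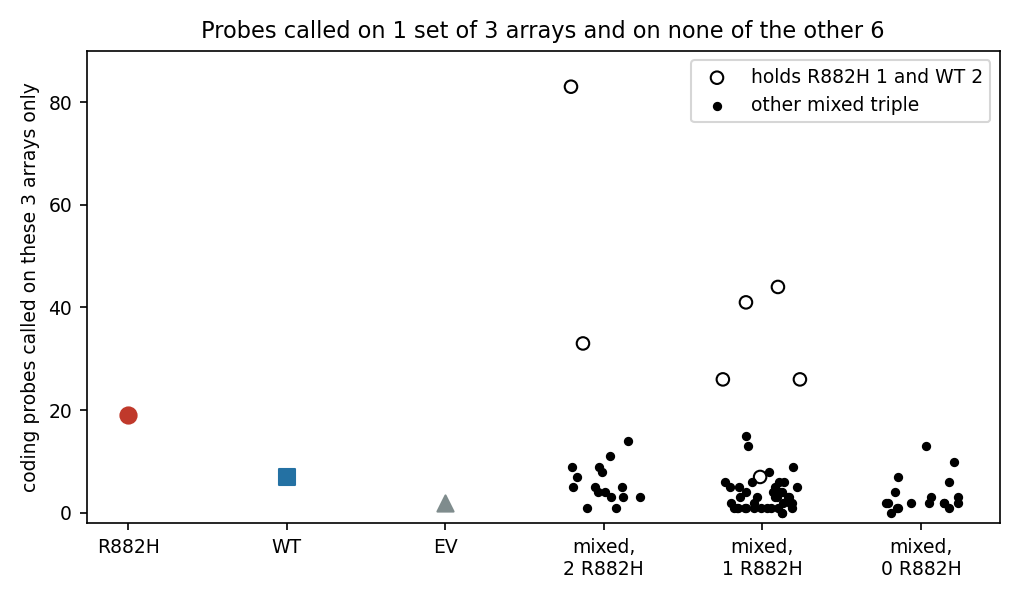
Number of coding probes called on 1 set of 3 arrays and on none of the other 6 (vertical axis), for the 3 groups and for the 81 mixed triples, split by how many R882H arrays they hold and spread sideways for legibility. R882H has 19, WT 7 and EV 2; open circles mark the 7 mixed triples that hold R882H replicate 1 and WT replicate 2, which range from 7 to 83.

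The 19 probes were dim with R882H as well. Their mean levels over the 3 R882H arrays ran from -1.94 (Irf4) to -3.63 (Cyp3a59), with a median of -3.03. The brightest of them lay above only 17.0% of the 16277 coding probes called on all 3 R882H arrays, and the median one above 2.80%. Folds are given as a lower bound, because without a call in a group a probe's level there is known only up to a limit: the R882H mean was set against the mean, over the arrays of the other group, of the higher of the dimmest called signal and the probe's own. The smaller of a probe's bounds over WT and over EV ran from 1.04 to 3.21, with a median of 1.39, and 4 of the 19 reached 2-fold while 10 stayed under 1.5-fold. The lowest R882H level lay above the highest of the 6 other levels for 16 of the 19, where 1.83% of all coding probes did (486 of 26536), and since the calls chose the probes nothing is read from that count. The lowest R882H level was on replicate 1 for 7 probes, on replicate 2 for 7 and on replicate 3 for 5, so the 3 arrays took turns.

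**Figure D3:**
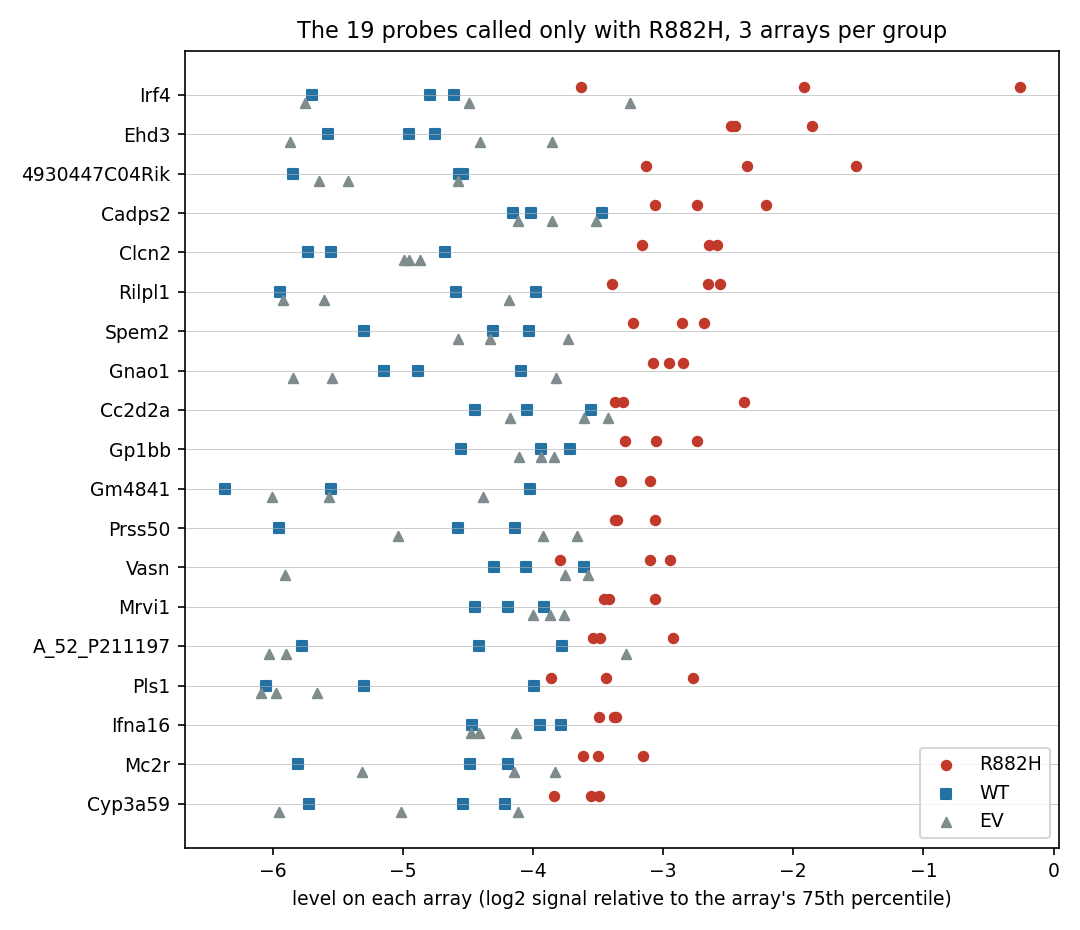
Level of each of the 19 probes on each array (horizontal axis, log2 signal over the array's 75th percentile), with R882H drawn above WT and EV in each row, ordered by the R882H mean; A_52_P211197 is a probe with no gene symbol. The R882H levels lie right of all others in 16 rows, and for Irf4, Vasn and A_52_P211197 they overlap with at least 1 other array.

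The promoters of Irf4, Ehd3 and Cadps2, the named genes with the largest fold bounds, and of Gp1bb and Ifna16, a cell surface and a secreted product, are shown with their CG dinucleotides, the sites DNMT3A can methylate, in capitals. They are RefSeq sequences of GRCm38.p6, from 250 bases before the transcription start to 50 after it, 5′ to 3′ on the strand of the gene. They differ widely in CG content, with 54 CG in Cadps2, 24 in Ehd3, 11 in Irf4, 8 in Gp1bb and 1 in Ifna16.
Irf4 (chr13:30748983-30749282, plus strand): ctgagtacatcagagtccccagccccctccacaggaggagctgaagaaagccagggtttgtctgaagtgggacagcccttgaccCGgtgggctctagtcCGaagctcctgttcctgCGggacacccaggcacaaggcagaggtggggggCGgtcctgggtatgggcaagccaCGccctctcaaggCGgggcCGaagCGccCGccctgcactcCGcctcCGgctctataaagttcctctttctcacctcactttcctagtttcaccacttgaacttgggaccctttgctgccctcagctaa
Ehd3 (chr17:73804591-73804890, plus strand): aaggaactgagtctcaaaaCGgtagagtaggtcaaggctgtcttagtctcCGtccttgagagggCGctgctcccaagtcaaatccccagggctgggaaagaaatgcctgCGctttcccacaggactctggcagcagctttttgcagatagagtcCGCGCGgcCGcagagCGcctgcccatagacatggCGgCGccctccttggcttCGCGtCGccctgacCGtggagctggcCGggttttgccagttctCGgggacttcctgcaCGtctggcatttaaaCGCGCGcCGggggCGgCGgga
Cadps2 (chr6:23839372-23839671, minus strand): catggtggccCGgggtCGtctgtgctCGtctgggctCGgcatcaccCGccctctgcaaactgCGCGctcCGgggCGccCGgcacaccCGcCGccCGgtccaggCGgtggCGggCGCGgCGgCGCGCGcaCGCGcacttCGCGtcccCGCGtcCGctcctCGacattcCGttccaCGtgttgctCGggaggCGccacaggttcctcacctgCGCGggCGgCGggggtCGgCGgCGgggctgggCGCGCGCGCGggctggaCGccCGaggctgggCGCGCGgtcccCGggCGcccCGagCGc
Gp1bb (chr16:18622354-18622653, minus strand): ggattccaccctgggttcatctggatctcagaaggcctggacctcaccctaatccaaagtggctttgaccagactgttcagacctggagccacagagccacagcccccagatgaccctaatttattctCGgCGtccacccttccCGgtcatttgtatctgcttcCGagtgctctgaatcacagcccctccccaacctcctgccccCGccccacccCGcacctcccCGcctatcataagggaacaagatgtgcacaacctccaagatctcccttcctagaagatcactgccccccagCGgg
Ifna16 (chr4:88676807-88677106, minus strand): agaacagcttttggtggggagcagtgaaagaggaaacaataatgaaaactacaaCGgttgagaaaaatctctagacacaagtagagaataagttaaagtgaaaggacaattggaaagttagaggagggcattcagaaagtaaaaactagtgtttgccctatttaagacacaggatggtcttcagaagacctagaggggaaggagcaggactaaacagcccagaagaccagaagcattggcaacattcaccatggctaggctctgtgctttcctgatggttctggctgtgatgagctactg

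A promoter was found for 16 of the 18 genes with a symbol. Their CG counts ran from 0 (Cyp3a59) to 54 (Cadps2) with a median of 12, against a median of 15 over 15732 of 19652 coding genes. Genes with a probe called on all 9 arrays had a median of 20 CG, and genes with no probe called on any array had a median of 4, so the 16 lay between these classes. The promoters of 5 of the 16 (31.2%) were CG-rich, defined here as at least 50% G and C with a CG count of at least 0.6 times that expected from the bases, against 49.3% of all coding genes, 66.5% of those called on 9 arrays and 19.6% of those never called. These 5 were Cadps2, Gnao1 (42 CG), Rilpl1 (26 CG), Ehd3 and Prss50 (21 CG). At least 1 CG was present in 93.8% of the promoters of the 19 probes' genes and in 95.5% of all. Methylation itself was not measured on these arrays.

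Among regulators and signalling genes, Irf4 had the highest R882H mean and the widest spread. Its levels were -3.63, -0.26 and -1.92 with R882H, -5.69, -4.79 and -4.61 with WT, and -4.49, -3.25 and -5.75 with EV. In signal units these were 18.1, 181 and 51.7 with R882H, 4.03, 8.60 and 8.45 with WT, and 9.18, 21.98 and 3.93 with EV. R882H replicate 2 was far above the rest, while R882H replicate 1 was called at a level below that of EV replicate 2, which was not called, so the groups overlapped. R882H was at least 3.86-fold above WT and at least 3.21-fold above EV on average (SD of the R882H levels 1.68, n = 3), and R882H replicate 1 lay no higher than the mean EV limit of -3.62 behind that bound. Of 24 probes for B lineage markers, 17 to 20 were called per array with R882H, 14 to 16 with WT and 9 to 14 with EV, while 64.6 to 69.8% of all coding probes were called with R882H, 63.0 to 69.8% with WT and 60.9 to 64.2% with EV. The log2 of their summed signal, on the same scale, was 6.84 to 7.33 with R882H, 6.04 to 7.21 with WT and 5.15 to 7.22 with EV, so the groups overlapped in it. Among 30 probes for T and NK lineage markers, 14 to 19 were called per array with R882H, 13 to 18 with WT and 15 with EV. Among 23 for macrophage and dendritic cell markers, 6 to 10 were called with R882H, 6 to 13 with WT and 6 to 9 with EV, so both counts overlapped. The part of any of these cell types in the Irf4 signal was not tested. Gnao1, the alpha subunit of the neuronal G protein Go, stood at -3.08, -2.84 and -2.96 with R882H, -4.88, -5.14 and -4.09 with WT, and -5.84, -5.54 and -3.82 with EV. Its 3 R882H arrays were close together (SD 0.12) and lay above all others, with a bound of 1.90-fold over WT and 1.64-fold over EV. Ifna16, a type I interferon, had a gap of 0.29 between the groups, with -3.37, -3.36 and -3.49 with R882H, -3.78, -4.47 and -3.95 with WT, and -4.41, -4.48 and -4.13 with EV, and bounds of 1.38-fold and 1.21-fold. Mc2r, the receptor for adrenocorticotropic hormone, had bounds of 1.38-fold over WT and 1.20-fold over EV.

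Among genes of membrane traffic, channels and cytoskeleton the gap between the groups ran from 0.06 to 1.51. Ehd3 stood at -1.86, -2.48 and -2.45 with R882H, -4.95, -5.57 and -4.76 with WT, and -3.85, -4.41 and -5.87 with EV. Its lowest R882H level lay 1.37 above the highest other level, and R882H was at least 3.08-fold above WT and 2.68-fold above EV. Cadps2, which primes dense-core vesicles for release, stood at -2.74, -2.21 and -3.06 with R882H, -4.02, -4.15 and -3.47 with WT, and -3.86, -3.51 and -4.12 with EV. Its gap between the groups was 0.40 and its bounds were 2.20-fold over WT and 2.02-fold over EV. Clcn2, a chloride channel, stood at -2.59, -2.65 and -3.16 with R882H, -5.73, -4.67 and -5.55 with WT, and -4.99, -4.87 and -4.95 with EV. Its gap of 1.51 was the widest of the 19, and its bounds were 2.12-fold and 1.85-fold, because the limits of detection lay well above its levels with WT and EV. Rilpl1, a protein of primary cilia, had bounds of 2.02-fold over WT and 1.76-fold over EV, and Cc2d2a, a component of the ciliary transition zone, had 1.72-fold and 1.39-fold with a gap of 0.06. Pls1, an actin-bundling plastin, was dim on R882H replicate 1 at -3.86, close to the highest other level of -3.99 on WT replicate 3, with bounds of 1.44-fold and 1.25-fold. The third brightest of the 19 was the RIKEN clone 4930447C04Rik, outside the rule for named genes and given because of its rank, at -1.52, -3.13 and -2.35 with R882H, -5.84, -4.57 and -4.54 with WT, and -4.58, -5.42 and -5.64 with EV. It was at least 2.93-fold above WT and 2.55-fold above EV, and its groups lay 1.41 apart.

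Platelet, testis and other tissue products made up the rest. Gp1bb, a subunit of the platelet receptor for von Willebrand factor, stood at -2.74, -3.06 and -3.29 with R882H, -3.94, -4.55 and -3.72 with WT, and -3.84, -3.94 and -4.11 with EV, with bounds of 1.81-fold and 1.57-fold. It was the only one of the 19 on any of 18 gene lists, that of megakaryocytes and platelets, of whose 26 coding probes 14 were called on all 9 arrays and 3 on none. The list was called at 19 to 22 probes per array with R882H, 15 to 21 with WT and 17 to 21 with EV. Of all coding probes, 64.6 to 69.8% were called per array with R882H, 63.0 to 69.8% with WT and 60.9 to 64.2% with EV. The log2 of the summed signal of the list was 5.44 to 6.14 with R882H, 4.76 to 5.28 with WT and 4.79 to 5.43 with EV. The part of the list in the Gp1bb signal was not tested. Spem2, of a family that acts in spermatid maturation, had bounds of 1.86-fold over WT and 1.69-fold over EV, and Prss50, a testis protease-like protein, had 1.51-fold and 1.28-fold. Vasn, a cell surface protein that binds TGF-beta, stood at -3.79 on R882H replicate 1, below WT replicate 3 at -3.60 and EV replicates 1 and 2 at -3.58 and -3.75, and its bounds were 1.45-fold and 1.27-fold. Mrvi1, a substrate of cGMP-dependent kinase in smooth muscle and platelets, had bounds of 1.49-fold and 1.27-fold. Cyp3a59, a cytochrome P450, was the dimmest, at -3.84, -3.55 and -3.50 with R882H, -4.54, -4.22 and -5.72 with WT, and -4.12, -5.01 and -5.95 with EV. Its bounds of 1.19-fold and 1.04-fold were the smallest of the 19, so its detection with R882H lay at the limit. Ifna16, Prss50 and Cyp3a59 belong to families of similar genes, and which copies their probes can bind was not analysed here.

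The remaining probes were the gene model Gm4841, with bounds of 1.55-fold over WT and 1.35-fold over EV, and a probe with no symbol, with 1.48-fold and 1.24-fold. The 18 symbols lay on 12 chromosomes, with 3 each on chromosomes 5 and 16 and 2 each on 9 and 18. Of the 19, 16 fell in none of the 18 lists and 24 gene families looked up. Within the slide that R882H and WT shared, R882H replicates 1 and 2 averaged above WT replicates 2 and 3 for each of the 19. The differences ran from 0.46 (Vasn) to 3.00 (Ehd3) on the log2 scale. The rule asked for calls on these R882H arrays and for no call on these WT arrays, so the direction was largely fixed by the choice. No share over all probes was computed for it, and nothing is read from it. Of the 19, 14 had at least 1 R882H level under -3.20, the 1st percentile of the levels called on EV replicate 2. The other 5 had all 3 R882H levels above that limit: 4930447C04Rik, Cadps2, Clcn2, Ehd3 and Gnao1.

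Other probes of the same genes gave a further reading of the transcript, though on the same arrays and so with no test. Of the 18 genes, 10 had another probe, 12 probes in all, and 8 had none. None of the 12 was called with R882H alone, 6 were called on all 3 R882H arrays, 11 on at least 1 of the 6 WT and EV arrays, and 5 had an R882H mean above both other means. Over all coding probes, 16277 of 26536 were called on all 3 R882H arrays. For the other counts no share over all probes was computed, so none of them is read as a result about these genes. The second Gp1bb probe was bright on every array, at 1.66, 1.66 and 1.70 with R882H, 1.53, 1.35 and 1.71 with WT, and 1.63, 1.60 and 1.55 with EV. That probe was called on all 9 arrays with overlapping levels in the 3 groups, and which transcripts it binds was not analysed. The third Gp1bb probe was called on 2 of 3 arrays in each group. It stood at -2.42, -2.87 and -3.92 with R882H, -3.77, -3.27 and -3.21 with WT, and -2.64, -3.32 and -2.78 with EV. The other Vasn probe was called on all 9 arrays, from -1.84 to -0.08. Clcn2 had a second probe called on all 3 R882H arrays, on 2 of 3 WT arrays and on 2 of 3 EV arrays. It stood at -2.15, -2.39 and -3.12 with R882H, -3.65, -3.98 and -2.75 with WT, and -4.09, -2.85 and -2.10 with EV, where EV replicate 3 was the brightest of the 9. For Cadps2 1 further probe had its R882H levels above all others, at -2.11, -1.71 and -2.77. It stood at -3.78, -3.22 and -5.70 with WT and -3.07, -2.78 and -5.95 with EV, a gap of 0.01. That probe was called on 3 R882H arrays, 1 WT array and 2 EV arrays. The third Cadps2 probe was highest on EV replicate 1, at 0.35. The other Gnao1 probe was called on none of the 9 arrays. The other Rilpl1 probe was called on 3 R882H, 2 WT and 3 EV arrays, with means of -2.14, -2.78 and -2.10. That of Cc2d2a was called on 1 R882H and 2 EV arrays, and that of Mrvi1 on 1 R882H, 2 WT and 2 EV arrays. On the R882H arrays the other probes of Prss50 and Cyp3a59 had 0 calls. That of Prss50 was called on 1 EV array and that of Cyp3a59 on 1 WT array. Probes of a gene disagreed elsewhere too: of 5355 genes with more than 1 coding probe, 429 (8.01%) had 1 called on all 9 arrays and another on none. Irf4 and Ehd3 had no other probe.

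**Figure D4:**
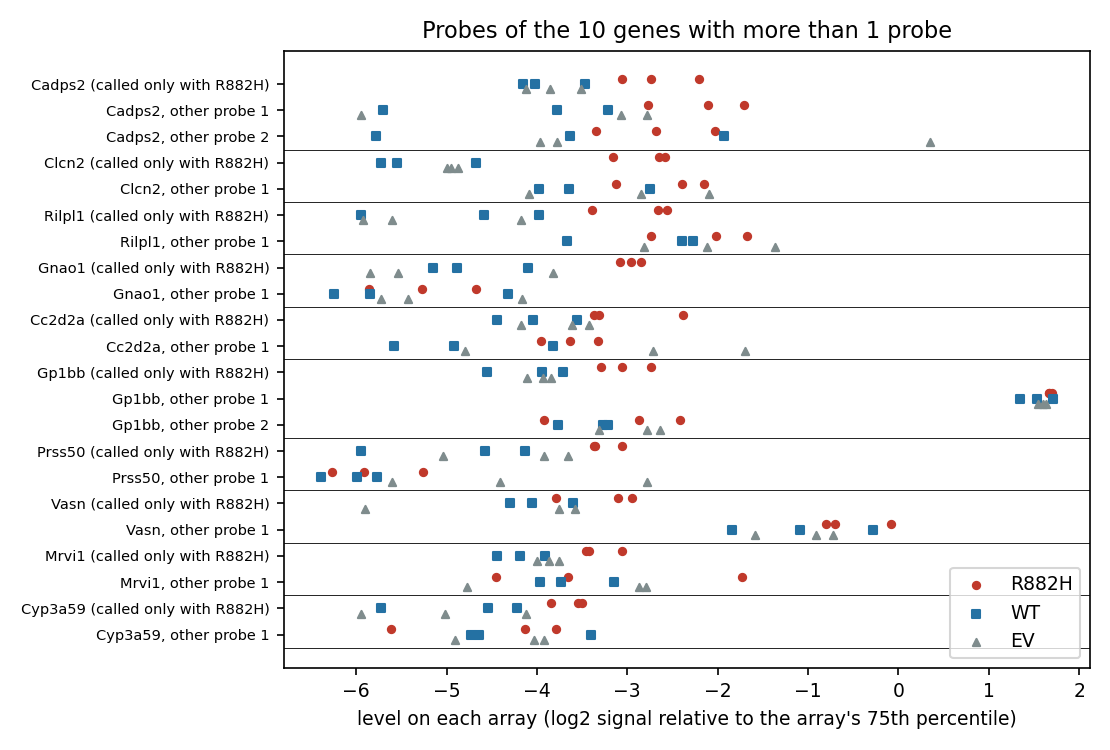
Levels on each array (horizontal axis, log2 signal over the array's 75th percentile) of the probes called only with R882H and of the other probes of the same 10 genes, R882H drawn above WT and EV in each row. One further Gp1bb probe lies between 1.35 and 1.71 on all 9 arrays, and 1 of the 12 further probes, of Cadps2, has all R882H levels above the rest.

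Calls on left-out arrays were counted as a further description. For each of 18 choices, 1 R882H array and 1 of the 6 others were left out, probes were picked by the same rule on the 7 arrays that remained, and the calls on both left-out arrays were counted. The choices found 40 to 216 probes. Of these, 23.4 to 72.5% (median 42.1%) were called on the left-out R882H array and 8.51 to 62.5% (median 20.3%) on the left-out WT or EV array. The R882H share was the higher one in 16 of the 18 choices, and both exceptions had WT replicate 2 as the left-out array, which called 60.2 to 62.5% of the probes in its 3 choices. The probes called on the left-out R882H array were the same whichever of the 3 was left out, 22 to 66 for each of the 6 other arrays, and always held the 19. The shares are therefore no independent support for the 19, and they differ between R882H arrays only through the number of probes picked. With WT as the single group, 12.9 to 57.9% were called on the left-out WT array and 4.35 to 52.7% on the other, with WT higher in 14 of 18 choices. With EV as the single group, 6.25 to 40.0% were called on the left-out EV array and 0.00 to 54.5% on the other, with EV higher in 5 of 18. The choices share arrays and probes, so no p is given.

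**Figure D5:**
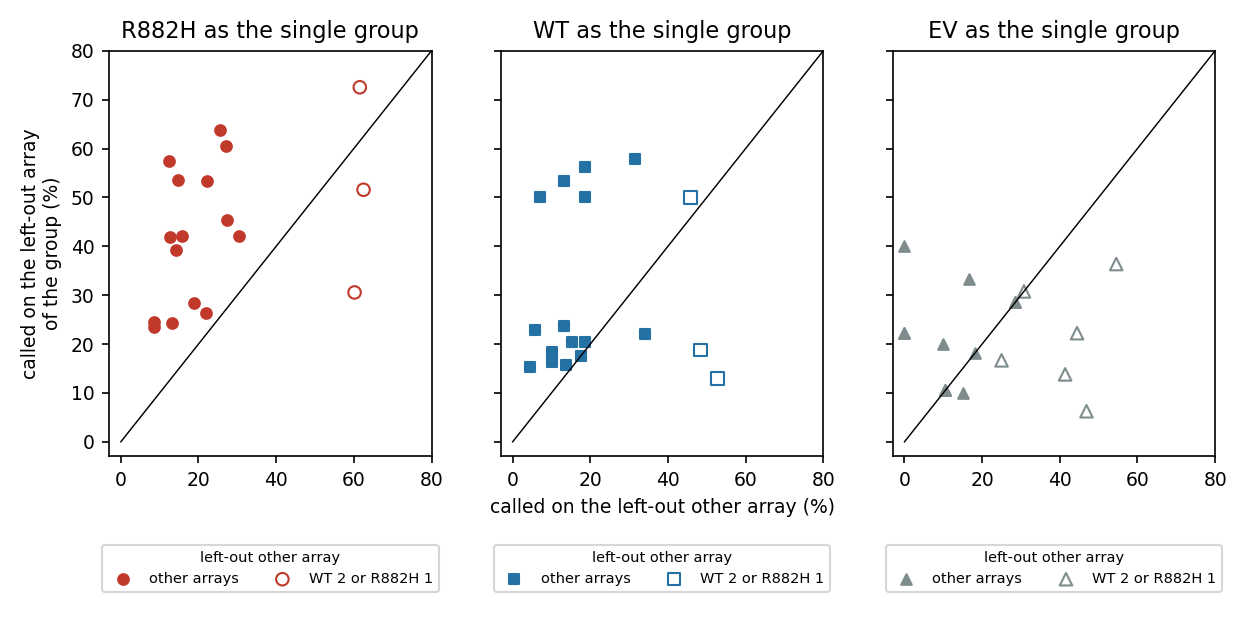
Percent of the probes picked on 7 arrays that were called on the left-out array of the single group (vertical axis) and on the left-out array of the other 6 (horizontal axis), 18 choices per panel, with the line of equal shares. With R882H 16 of 18 points lie above the line, with WT 14 and with EV 5; open symbols mark choices whose other array was WT replicate 2 or R882H replicate 1.

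Many more probes missed the rule by 1 call. With R882H, 112 coding probes were called on 2 of its 3 arrays and on none of the other 6, and 80 on all 3 and on 1 of the 6; with WT these counts were 69 and 13, and with EV 25 and 2. R882H replicate 3 lacked the call for 67 of the 112, replicate 2 for 29 and replicate 1 for 16. Of the 80 extra calls, 47 were on WT replicate 2, 11 on WT replicate 1 and 3 on WT replicate 3, and 10, 4 and 5 on EV replicates 1 to 3. The brightest named probes just outside were those of Gng13, a G protein gamma subunit, Add2, a membrane skeleton protein, and Ache, acetylcholinesterase, with R882H means of -2.02, -2.16 and -2.24, above all of the 19 but Irf4. Gng13 stood at -2.22, -1.38 and -2.46 with R882H, and WT replicate 1, at -2.04, was the array that kept it out. Just inside the limit were Pls1, Cyp3a59 and Vasn, with lowest R882H levels of -3.86, -3.84 and -3.79. Listed genes just outside included Pax5, the B lineage factor, at -3.58, -3.36 and -3.76 with R882H, -4.17, -5.67 and -5.27 with WT, and -3.52, -5.50 and -4.70 with EV. Its R882H levels overlapped with EV replicate 1. Hoxa2 was called on all 3 R882H arrays, at -3.36, -3.24 and -0.72, and on 1 other. Flt1 of endothelium, Col3a1 of stroma, Piwil1 of the germline and the imprinted Cdkn1c were further listed genes there.

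WT against EV was the 1 difference between groups that did not enter the choice as a contrast, although all 6 arrays had to lack a call. All 19 entered the test through their calls on the R882H arrays and had none on the arrays compared, so the count of them that passed is not read as a result. Among 31240 probes tested with limma, 4 were higher and 2 lower with WT (adjusted p under 0.05, which are 0.0128% and 0.0064%, together 0.0192%, of those tested), and 1964 (6.29%) had an unadjusted p under 0.05. Of the 19, 0 were called by limma, 0 had an unadjusted p under 0.05, 9 were above and 10 below, and their median difference was -0.05 against 0.01 over all probes tested. The smallest adjusted p among them was 0.835, for Pls1 (0.79 ± 0.49 log2, SE) and Mrvi1 (-0.31 ± 0.19 log2, SE), and Prss50 followed with -0.68 ± 0.49 log2 (limma adjusted p = 0.840). With the replicate number as a block limma called 0 probes in place of 6, with 2606 at an unadjusted p under 0.05, and 0 of the 19. Within the slide the groups shared, WT replicate 1 minus the 3 EV arrays gave a median of -0.14 over the 19. These levels were not well above background on any of the 6 arrays, and the median SE of a difference was 0.49.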

How the data were processed

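RNA of 9 samples was measured on 1-colour Agilent arrays (design 028005, probe coordinates on mm9), quantified with Feature Extraction 10.10.1.1, per the file headers. The intensity the authors deposited per spot was, per the file headers, already corrected for background and spatial trend, with other columns holding flags for signal well above background and for outliers. The authors' deposited value table holds log2 values of 41854 probes. Its making is described in no source used here, and its comparison with the arrays gave log2 intensity minus the array's 75th percentile and each probe's median. It served as an alternative.

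Log2 intensities minus the 75th percentile over non-control spots were averaged per probe, without the 154 to 184 outlier spots per array; no spot was saturated. A probe was called where most of its spots were well above background. The number of arrays limits the precision. Symbols came from RefSeq accessions (26083 of 26536 coding probes, 19652 genes, GRCm38.p6 table). WT and EV were compared with limma 3.58.1 in R 4.3.3, with all 9 arrays in 1 fit (6 residual and 2.71 prior degrees of freedom), on probes called on all 3 arrays of at least 1 group, with Benjamini-Hochberg adjustment and a threshold of 0.05; the script was tested on simulated data. The main fit did not pair WT and EV samples, and the replicate number entered as a block only in an alternative. The replicate numbers came from the labels, and whether the same number means a pair was judged from the data alone. The deviations of same-numbered WT and EV samples correlated at 0.10, 0.19 and 0.24. The normexp alternative used median in place of mean signals.

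Genes were named by rule: the 12 brightest of the 19 probes, the 12 with the largest smaller bound, those on a list, up to 3 per family with several members, the 3 with the lowest level, the 3 brightest just outside and the 3 with the smallest p for WT against EV, without clones and gene models. Other genes are named where the count they belong to is small or to give all 19, after their values were seen. The probes, lists and families were chosen with earlier results of these data known. Alternatives were another background call, equal numbers of probes, other accession classes, normalizations, filters, blocks, and samples left out. A listed gene just outside the rule is not reported here.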

Additional observations from a re-analysis of the deposited data

Results flagged for a closer look

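Outside the coding accessions, 29145 further probes lay on the array, among them 16194 placed on genome intervals. The same rule found 19 of these on all 3 R882H arrays and on none of the 6 others, or 0.0652%, against 8 with WT and 2 with EV as the single group; they were not used above. Of the 19, 14 were probes for genome intervals. Mixed triples of arrays gave 0 to 134 such probes with a median of 5, so this signal was at a share close to that of the coding probes and within the range of the mixed triples.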

How the results depend on the processing

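The count of 19 R882H probes moved with the detection rule. It was 11 with the software's test of positive and significant signal (11 with WT, 4 with EV; 0 of the 19 shared), 8 with equal numbers of brightest probes (8 with WT, 6 with EV), 38 with all accession classes (15 and 4) and 3 with groups as the value table names its columns (41 and 2, 0 of the 19 shared). Added after seeing the data, 1 common level limit of -3.20 gave 15 (2 and 2), with 5 of the 19 shared, and leaving out replicate 3 in all groups gave 113 (64 and 7). Counting all spots of a probe or outlier spots left 19, 7 and 2. Each of the 19 had 1 spot, so counting all spots could not have removed any of them. Leaving out 1 array relaxes the rule, and the R882H count then ranged over 22 to 86, the WT count over 7 to 44 and the EV count over 2 to 17. The R882H count was 86 without R882H replicate 3, 48 without replicate 2 and 35 without replicate 1; it was 66 without WT replicate 2, 30 without WT replicate 1 and 29 without EV replicate 1. The WT count was 44 without WT replicate 3, 33 without WT replicate 1, 13 without WT replicate 2, 12 without R882H replicate 1 and 11 without EV replicate 3. The EV count was 17 without EV replicate 2, 9 without EV replicate 1, 5 without EV replicate 3 and 4 without WT replicate 2.

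The 6 limma calls between WT and EV became 0 under normexp, quantile normalization, no filter, probes called on all 9 arrays, the replicate block, the slide block, WT and EV arrays alone, and the value table, with 1504 to 2711 probes at an unadjusted p under 0.05. They numbered 0 to 1 when any array was left out, each of the 9 arrays included, with 1674 to 3002 at an unadjusted p under 0.05; the cause was not tested. The median difference of the 19, which the filter on all 9 arrays leaves out, ranged from -0.26 to 0.09 with arrays left out, within the 0.29 SD between replicates. Of the 19, 2 had an unadjusted limma p under 0.05 with the slide block, with the value table, and without WT replicate 2, EV replicate 2 or EV replicate 3. Without WT replicate 1 there was 1. The split of 9 above and 10 below with WT became 4 and 15 under normexp. It was 5 and 14 without EV replicate 3, and 12 and 7 with the value table. Dim signal and 3 arrays per group limit all of these values.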

Other observations

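With 1 common level limit, 10 probes that were not among the 19 passed on the R882H arrays alone. They included Ggt1, a gamma-glutamyltransferase of glutathione turnover, Serpinh1, a collagen chaperone, and Prss8, a membrane serine protease, with R882H means of -2.35, -2.80 and -2.81. These were named after their values were seen. Ggt1 stood at -2.89, -1.90 and -2.27 with R882H, -5.54, -6.53 and -5.95 with WT, and -3.66, -4.25 and -4.94 with EV, and a call on 1 EV array kept it out of the 19. Of all probes, that of Ehd3 was the 1 shared by the 19 and by the 8 found with equal numbers of probes per array.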
